A study of Mus musculus with 8 samples.

Results

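The c-Jun N-terminal kinases (JNK1, JNK2 and JNK3) are encoded by Mapk8, Mapk9 and Mapk10, and these 3 genes were followed here in cortex with and without the RNA-binding protein Nova2. The members were all probe sets whose platform annotation names exactly 1 of these genes: 14 for Mapk8, 23 for Mapk9 and 33 for Mapk10, 70 of 391597 on the array. Of the 70, 67 passed the filter on dim signal, which asked for a mean over the 8 arrays above 5.86 log2, and the 3 that did not were probe sets of Mapk10. Total RNA of cortex came from CD1 mice at postnatal day 10, wild type (4) or Nova2 KO (4), and was hybridised to 1 Affymetrix exon array per mouse. The part of Nova2 that was deleted, the sex of the mice and any allele or agent shared by both groups are not given in the sources used here.

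JNKs are serine/threonine kinases of the MAP kinase family. Stress, cytokines or developmental cues activate a MAP3K, which phosphorylates the MAP2Ks Map2k4 and Map2k7, and these phosphorylate a threonine-proline-tyrosine motif in the activation loop of JNK. In developing cortex the pathway is known for acting on transcription factors such as c-Jun and on microtubule proteins such as doublecortin and stathmins, and so for its part in neuronal migration, axon growth and apoptosis. Mapk8 and Mapk9 are expressed in most tissues, and Mapk10 mainly in the nervous system. Each JNK pre-mRNA carries a pair of mutually exclusive exons within the kinase domain, and Mapk9 (Jnk2) has been reported as a target of Nova proteins. The platform annotation used here gives a gene for each probe set but no exon, so which probe sets lie on the alternative kinase-domain exons was not analysed here.

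Array medians ran from 7.02 to 7.37 log2, and Spearman correlations between arrays from 0.935 to 0.976. Values at the floor of 4 log2 made up 0.991% to 3.34% of an array. Nova2 has 16 probe sets, and which of them lie in the deleted part is not known here. The lowest in Nova2 KO, 5294108, lay at 8.87, 8.65, 8.53 and 8.66 log2 on wild type arrays 1 to 4 and at 6.28, 7.17, 7.26 and 6.73 log2 on Nova2 KO arrays 1 to 4. Its groups did not overlap (difference -1.82 log2, SE 0.22, limma adjusted p = 0.0786). The groups were apart the other way for 4414499 (0.70 log2, SE 0.13, limma adjusted p = 0.321) and 4355944 (0.40 log2, SE 0.14, limma adjusted p = 0.70), and overlapped for the other 13. Over all probe sets, 2.04% had every Nova2 KO array below every wild type array and 3.05% every one above. The gene value of Nova2 differed by -0.016 log2. The drop that goes with the labels is thus that of 1 probe set of 16, picked as the lowest, which is no independent check of them. Of the 4 measured genes of the excitatory neuron list, Slc17a7 (12.2 log2 in wild type) and Snap25 (11.7 log2) were far above the filter value. Snap25 is a gene of neurons in general. Neurod6 stood at 9.37 log2 and Tbr1 at 7.59 log2 in wild type. Barhl1, a gene of cerebellar granule cells, stood at 6.70 log2 in wild type, not far below Tbr1. Whether these values separate cortex from cerebellum was not tested. Ttr, the transthyretin gene of the choroid plexus, averaged 13.2 log2 without and 13.3 log2 with the knockout. Kl, the other measured choroid plexus gene, averaged 7.07 log2 in wild type and differed by -0.070 log2, against 0.078 log2 for Ttr. Of 12 measured genes of oligodendrocytes and myelin, 11 were lower in Nova2 KO, as were 44.6% of all genes. The mean gene value of the 12 was 8.76 to 8.99 log2 in Nova2 KO against 9.16 to 9.29 log2 in wild type. Mal and Mog were past the threshold, a Benjamini-Hochberg adjusted p of 0.05 over all genes in limma, as were 0.208% of all genes. For 5 of the 12, every Nova2 KO value lay below every wild type value as deposited, against 2.5% of all genes. Differences within the list ran from -1.03 log2 (Mal) to 0.046 log2 (Sox10), with Olig1, Olig2 and Pdgfra from -0.11 to -0.0075 log2 and Gpr17 at -0.36 log2. Vessel (5 of 5), microglial (5 of 6) and astrocyte (4 of 5) genes were also mostly lower, as was the blood gene Alas2 (-0.72 log2). None of these passed the threshold. Higher were 3 of 4 genes of the excitatory neuron list (median 0.17 log2) and 4 of 5 interneuron genes (median 0.010 log2), as were 55.4% of all genes. The exceptions were Slc17a7 (-0.19 log2) and Gad2 (-0.20 log2). The part of these shifts in the JNK results was not tested.

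The gene value, the median log2 signal over the kept probe sets of a gene, asks whether the amount of each JNK transcript depends on Nova2. No JNK gene passed the threshold, a Benjamini-Hochberg adjusted p of 0.05 over all genes in limma. Mapk8 had the largest difference of the 3, and its Nova2 KO values lay above its wild type values as deposited, though not once each array was centred on its median. Mapk10 was slightly higher and Mapk9 was near 0 difference, both with overlapping groups. Of all genes, 55.4% were higher in Nova2 KO and 44.6% lower. In bulk cortex, a change in the number of cells that express a gene and a change in RNA per cell cannot be told apart.

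For Mapk8, which encodes JNK1, the gene value was 10.54, 10.60, 10.43 and 10.40 log2 on wild type arrays 1 to 4 and 10.88, 10.70, 11.09 and 11.04 log2 on Nova2 KO arrays 1 to 4. The lowest Nova2 KO array (array 2) was above the highest wild type array (array 2). The Nova2 KO mean of 10.93 ± 0.18 log2 and the wild type mean of 10.49 ± 0.093 log2 (SD, n = 4) gave a difference of 0.44 log2 (SE 0.11, 95% interval 0.20 to 0.68), or 1.36-fold. The limma adjusted p was 0.195, and the exact permutation p was 0.0286 (two-sided), the smallest that 4 against 4 arrays can give. With each array centred on its median the difference was 0.44 log2, but the lowest Nova2 KO value (10.59 log2) was under the highest wild type value (10.65 log2), and the exact permutation p was 0.0571. Among all 11992 genes tested, 5.06% had every Nova2 KO value above every wild type value as deposited, and 0.208% passed the threshold in either direction. The median difference over all genes was 0.022 log2.

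For Mapk9, which encodes JNK2, the gene value was 10.16, 10.27, 10.21 and 9.93 log2 on wild type arrays 1 to 4 and 10.19, 10.15, 10.27 and 9.89 log2 on Nova2 KO arrays 1 to 4. Array 4 was the lowest in both groups, as it was in array median, and the groups overlapped. The difference was -0.020 log2 (SE 0.11, 95% interval -0.27 to 0.23, limma adjusted p = 0.971), so the interval leaves room for a difference of about 0.25 log2 in either direction. The means were 10.12 ± 0.16 log2 in Nova2 KO and 10.14 ± 0.15 log2 (SD, n = 4) in wild type.

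For Mapk10, which encodes the neuronal JNK3, the gene value was 10.03, 9.99, 9.81 and 9.86 log2 on wild type arrays 1 to 4 and 10.21, 10.07, 9.94 and 10.22 log2 on Nova2 KO arrays 1 to 4. Nova2 KO array 3 lay within the wild type range and the other Nova2 KO arrays above it. The difference was 0.19 log2 (SE 0.10, 95% interval -0.038 to 0.41, limma adjusted p = 0.508). It was 0.019 log2 when the 3 dim probe sets were included, and 0.11 log2 as the mean over probe sets in place of the median.

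**Figure D1:**
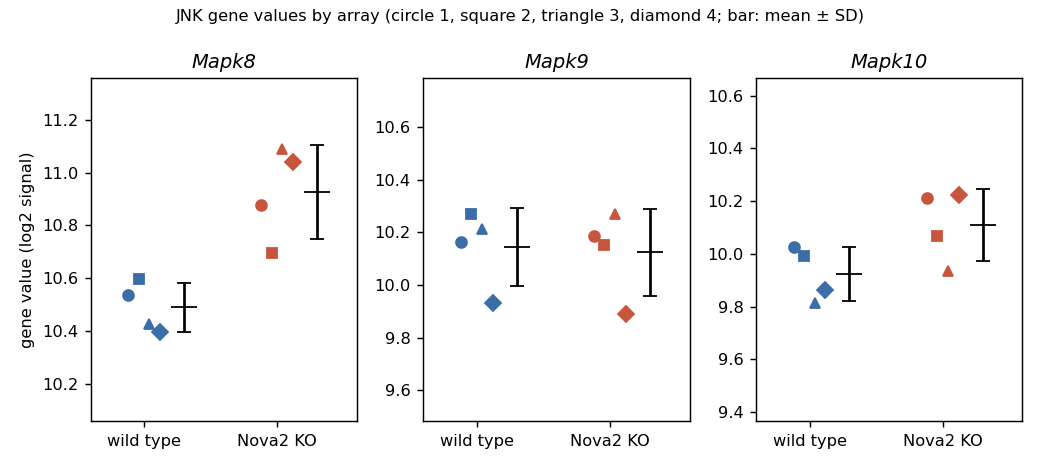
Gene values of Mapk8, Mapk9 and Mapk10 (log2 signal, vertical axis) on the 4 wild type (blue) and 4 Nova2 KO (red) arrays, with the mean and SD of each group beside the points; each panel spans the same log2 range. As deposited, the Mapk8 groups do not overlap, with 10.40 to 10.60 in wild type and 10.70 to 11.09 in Nova2 KO, whereas those of Mapk9 and Mapk10 do.

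Whether the genes differed from one another in this response was tested on the difference between 2 gene values of the same array, which does not depend on the overall level of the array. Mapk8 minus Mapk9 ran from 0.21 to 0.47 log2 in wild type and from 0.55 to 1.15 log2 in Nova2 KO, and the response of Mapk8 exceeded that of Mapk9 by 0.46 log2 (exact permutation p = 0.0286, adjusted p = 0.0429 over the 3 pairs). Mapk8 minus Mapk10 ran from 0.51 to 0.61 log2 in wild type and from 0.63 to 1.16 log2 in Nova2 KO, a shift of 0.25 log2 (exact permutation p = 0.0286, adjusted p = 0.0429). Mapk9 minus Mapk10 shifted by -0.21 log2 (exact permutation p = 0.257), with overlapping groups. Set against Mapk9 in this way, 4.24% of all other genes had every Nova2 KO difference above every wild type difference, and set against Mapk10, 0.267% did. Both calls were lost without any one of the wild type arrays (exact permutation, adjusted p of 0.171 to 0.214), with sizes of 0.41 to 0.50 log2 against Mapk9 and 0.23 to 0.27 log2 against Mapk10. Leaving out an array cannot make separate groups overlap, and it leaves the exact test fewer assignments, so this loss does not show weaker separation. Both calls held without any one of the Nova2 KO arrays. Both were also lost with the mean over probe sets or the filter at the 50th percentile (adjusted p = 0.0857). Without Nova2 KO 3 the shift of Mapk8 against Mapk10 was 0.14 log2.

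The signal of single probe sets shows how evenly each gene moved. No JNK probe set passed the threshold over the 293697 probe sets tested with limma (0.00681% did), and the lowest adjusted p was 0.658. At an unadjusted p under 0.05 there were 10 of the 67, of which 8 belonged to Mapk8, against 6.68% of all probe sets. All 10 were higher in Nova2 KO, as were 3.9% of all probe sets at that p. All Nova2 KO arrays lay above all wild type arrays for 9 JNK probe sets, 7 of Mapk8 and 1 each of Mapk9 and Mapk10, against 3.05% of all probe sets. Probe sets of 1 gene measure that gene on the same arrays, so neither count is of independent events. With each array centred on its median, none of those 7 Mapk8 probe sets kept its groups apart and a different one had them apart; with quantile normalization 5 of the 7 did. Probe set 5462265 of Mapk9 kept them apart under both, and 4473653 of Mapk10 under neither. As deposited, no JNK probe set had all Nova2 KO arrays below all wild type arrays (2.04% of all did).

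In Mapk8 all 14 probe sets were higher in Nova2 KO, by 0.14 to 0.45 log2 (median 0.30 log2), and all 14 stayed higher with median centring or quantile normalization. Over the array, 51.1% of probe sets were higher and 48.9% lower. Of 6092 genes with at least as many kept probe sets, 2% had all of them higher. The gene value moved by more than most of its probe sets because 4309361 and 5539600, which lie in the middle of the 14 by signal, set the median on each array. The differences of these probe sets were 0.43 and 0.45 log2, and the mean over all 14 was 0.31 log2 (limma adjusted p = 0.117). Probe set 5539600 was at 10.73, 10.89, 10.72 and 10.67 log2 on wild type arrays 1 to 4 and at 11.12, 10.94, 11.41 and 11.34 log2 on Nova2 KO arrays 1 to 4, apart as deposited and overlapping after median centring. Probe set 4564749, with the same size of difference (0.45 log2), was at 8.43, 8.73, 9.19 and 8.81 log2 in wild type and at 9.18, 9.33, 9.18 and 9.26 log2 in Nova2 KO. Here the groups overlapped, since wild type array 3 lay just above Nova2 KO arrays 1 and 3. Nova2 KO array 3 was the highest of the Nova2 KO arrays for 8 of the 14 probe sets and the lowest for 3, so the probe sets of Mapk8 did not all follow the same array pattern.

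In Mapk9, 8 probe sets were higher and 15 lower (median -0.021 log2). The extremes were 5252115 at -0.58 log2 and 5462265 at 0.56 log2. Array 4, the lowest of each group in array median, was the lowest wild type array for 17 of the 23 probe sets. It was the lowest Nova2 KO array for 14. In Mapk10, 27 of the 30 kept probe sets were higher in Nova2 KO and 3 lower, their median being 0.061 log2 and their range -0.12 to 0.66 log2. After quantile normalization 21 were higher and 9 lower. The largest differences were those of 5006161 (0.66 log2, SE 0.30) and 4473653 (0.38 log2, SE 0.14). Without wild type 4, that of 5006161 was 0.38 log2. Nova2 KO array 3 was the lowest of the Nova2 KO arrays for 11 Mapk10 probe sets and the highest for 9, which mixes both directions within 1 array.

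**Figure D2:**
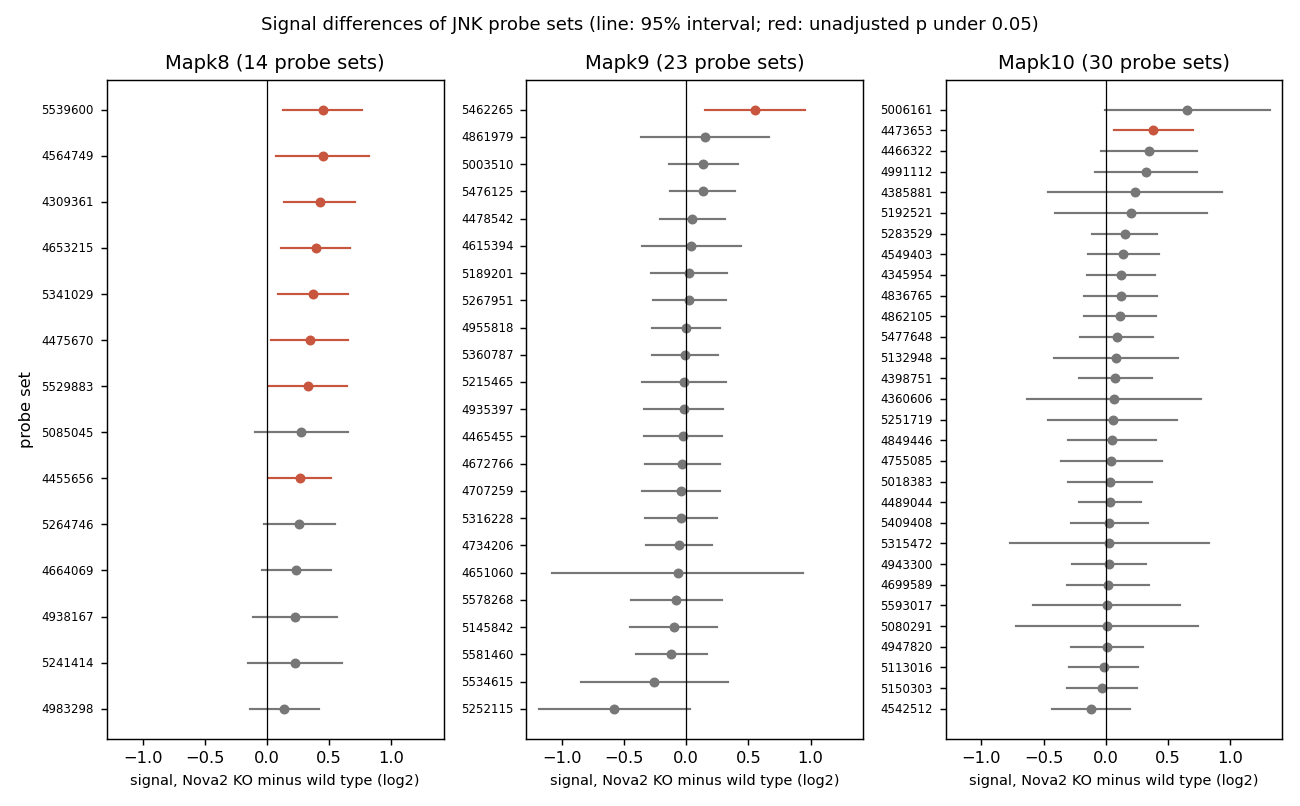
Signal difference of each kept JNK probe set (Nova2 KO minus wild type, log2, horizontal axis) with its 95% interval, sorted within Mapk8, Mapk9 and Mapk10; red marks an unadjusted limma p under 0.05. All 14 Mapk8 points lie right of 0, while the Mapk9 points centre on 0 apart from 1 at either end.

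Precision varied with signal. Of the kept probe sets, none of Mapk8, 4 of Mapk9 and 10 of Mapk10 had a wild type mean under 8 log2, a level chosen after the values were seen. The median SD within groups was 0.39 log2 for the 4 dim Mapk9 probe sets against 0.15 log2 for the other 19, and 0.47 log2 for the 10 dim Mapk10 probe sets against 0.14 log2 for the other 20. The 3 Mapk10 probe sets under the filter, 4800154, 5191656 and 5413837, had means of 4.60, 4.81 and 5.36 log2, and 4800154 and 5191656 were close to the floor on at least 1 array of each group. The signals of the 3 differed by 0.29, -0.0045 and -0.20 log2 and their indices by 0.100, -0.19 and -0.39 log2, values given without a test.

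Exon usage is where a splicing regulator would act, and it was measured as the index of a probe set, its log2 signal less the gene value on that array. No JNK probe set passed the threshold over the 195014 probe sets tested (0.0133% did), and the lowest limma adjusted p was 0.599. At an unadjusted p under 0.05 there were 4 of the 67, against 6.76% of all: 4983298 of Mapk8, 5252115 and 5462265 of Mapk9 and 4542512 of Mapk10. The index difference was within 0.25 log2 of 0 for 13 of 14 probe sets of Mapk8, 21 of 23 of Mapk9 and 28 of 30 of Mapk10. The groups failed to overlap for 2 JNK probe sets, both of Mapk8 and both lower in Nova2 KO, against 2.05% of all probe sets in that direction. Over all probe sets, indices were evenly split, with 49.8% higher and 50.1% lower in Nova2 KO.

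Mapk9 held the widest spread of exon usage among the JNK genes, in a pair of probe sets that lay on opposite sides of 0. Probe set 5462265 was at 11.10, 11.23, 11.30 and 10.77 log2 on wild type arrays 1 to 4 and at 11.97, 11.79, 11.35 and 11.52 log2 on Nova2 KO arrays 1 to 4. In signal its groups did not overlap, although Nova2 KO array 3 was only just above wild type array 3. Its index was 0.58 log2 higher in Nova2 KO (SE 0.15, 95% interval 0.23 to 0.92, limma adjusted p = 0.599), or 1.49-fold. On the index scale Nova2 KO 3 (1.08 log2) and wild type 3 (1.09 log2) overlapped, and without Nova2 KO 3 the index difference was 0.73 log2 (limma adjusted p = 0.322).

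Probe set 5252115 of Mapk9 was at 8.40, 9.40, 9.03 and 8.48 log2 on wild type arrays 1 to 4 and at 8.18, 7.86, 8.82 and 8.13 log2 on Nova2 KO arrays 1 to 4. Nova2 KO array 3 was again the one closest to wild type, and it lay above wild type arrays 1 and 4. The index was lower by 0.56 log2 in Nova2 KO, from -1.32 ± 0.38 log2 (SD, n = 4) in wild type to -1.88 ± 0.36 log2 (SE of the difference 0.23, limma adjusted p = 0.724). The signal of 5462265 minus that of 5252115 was 2.70, 1.83, 2.27 and 2.29 log2 on wild type arrays 1 to 4 and 3.79, 3.93, 2.54 and 3.39 log2 on Nova2 KO arrays 1 to 4. Its mean was 3.41 ± 0.63 log2 in Nova2 KO against 2.27 ± 0.36 log2 (SD, n = 4) in wild type, a shift of 1.14 log2 or 2.20-fold, read between the 2 probe sets with the widest index differences and so without a test. Nova2 KO arrays 1, 2 and 4 were above the wild type range, and array 3 lay just below its highest value.

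**Figure D3:**
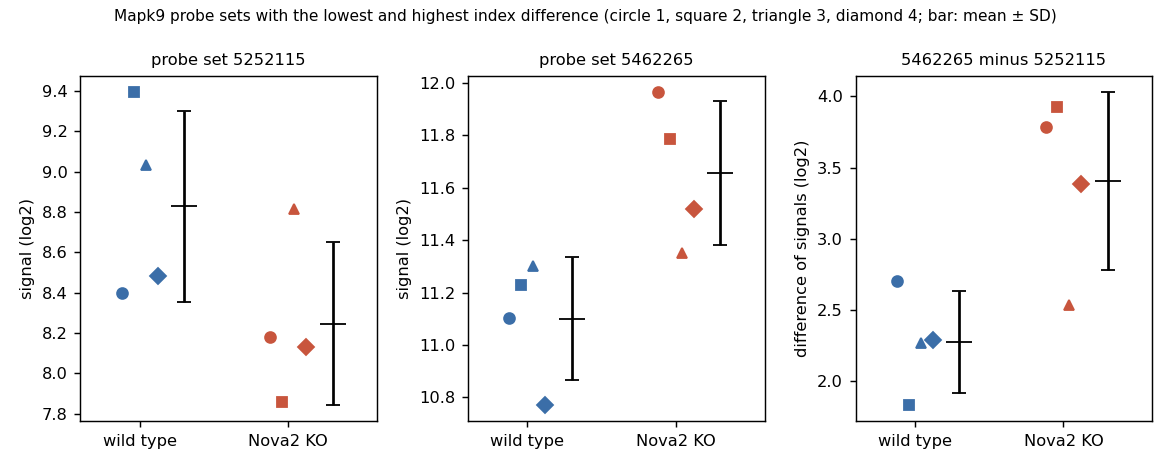
Signals (log2, vertical axes) of Mapk9 probe sets 5252115 and 5462265 and the difference between them, by array, for 4 wild type (blue) and 4 Nova2 KO (red) mice with group mean and SD. In the right panel 3 Nova2 KO arrays lie at 3.39 to 3.93, above the wild type maximum of 2.70, and Nova2 KO array 3 lies at 2.54 within the wild type range. The pair was picked for the lowest and highest index difference of Mapk9 in these data, so its separation was not tested.

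The other 21 Mapk9 probe sets had index differences from -0.24 to 0.17 log2. The next lowest was 5534615 (-0.24 log2, SE 0.19), at 7.40, 7.26, 7.51 and 6.45 log2 on wild type arrays 1 to 4 and at 6.94, 7.12, 7.16 and 6.37 log2 on Nova2 KO arrays 1 to 4. The next highest was 4861979 (0.17 log2, SE 0.16), at 7.42, 7.57, 7.67 and 6.61 log2 in wild type and at 7.50, 7.62, 7.51 and 7.25 log2 in Nova2 KO. Both were dim probe sets in which array 4 was the lowest of each group, as it was in array median. Without wild type 4 the index of 4861979 differed by 0.0064 log2 and that of 5534615 by -0.40 log2. Without wild type 3 they differed by 0.27 and -0.14 log2.

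In Mapk8, 12 of 14 indices were lower (median -0.14 log2), since the gene value moved by more than most probe sets. Probe set 4983298 was at 11.36, 11.29, 11.22 and 11.14 log2 on wild type arrays 1 to 4 and at 11.40, 11.21, 11.44 and 11.52 log2 on Nova2 KO arrays 1 to 4. Its signal overlapped between the groups (difference 0.14 log2), while its index ran from 0.70 to 0.82 log2 in wild type and from 0.35 to 0.52 log2 in Nova2 KO. The index difference was -0.30 log2 (SE 0.083, limma adjusted p = 0.619), in a probe set whose signal was not lower. Against the mean over probe sets in place of the median, it was -0.17 log2. The index of 5241414 differed by -0.21 log2 (SE 0.23), by -0.38 log2 without Nova2 KO 2, by -0.075 log2 without Nova2 KO 3 and by -0.088 log2 against the mean over probe sets. Its signal was 7.92, 7.81, 8.26 and 8.10 log2 in wild type and 8.41, 8.53, 8.003 and 8.06 log2 in Nova2 KO, with Nova2 KO arrays 1 and 2 above the other arrays. The indices of 4564749 (0.0094 log2) and 5539600 (0.012 log2) were at the upper end of the gene, and the other 10 ran from -0.21 to -0.012 log2.

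In Mapk10, 24 of 30 indices were lower (median -0.12 log2). Probe set 4542512 was at 6.42, 6.47, 6.72 and 6.46 log2 on wild type arrays 1 to 4 and at 6.52, 6.15, 6.38 and 6.55 log2 on Nova2 KO arrays 1 to 4, a dim signal with overlapping groups. Its index difference of -0.30 log2 (SE 0.13, limma adjusted p = 0.739) was -0.20 log2 without wild type 3. Probe set 5150303 (index -0.21 log2, SE 0.12) lay between 9.71 and 9.89 log2 in wild type and between 9.62 and 9.91 log2 in Nova2 KO, which covers the wild type range. With the 3 dim probe sets included in the gene value, the index of 5150303 differed by -0.046 log2 and that of 4542512 by -0.14 log2, and without Nova2 KO 4 that of 5150303 differed by -0.14 log2.

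At the upper end of Mapk10, 5006161 was at 7.41, 8.08, 8.12 and 6.78 log2 on wild type arrays 1 to 4 and at 8.02, 8.32, 8.60 and 8.08 log2 on Nova2 KO arrays 1 to 4. Wild type arrays 1 and 4 were below the rest. The index difference of 0.47 log2 had an SE of 0.32. Leaving out wild type 4 gave 0.22 log2, and leaving out Nova2 KO 3 gave 0.30 log2. Probe set 4473653 was at 9.83, 10.02, 9.83 and 10.01 log2 in wild type and at 10.20, 10.10, 10.59 and 10.33 log2 in Nova2 KO, apart as deposited and overlapping after median centring or quantile normalization. Its index difference was 0.20 log2 (SE 0.16), 0.044 log2 without Nova2 KO 3 and 0.36 log2 with the 3 dim probe sets in the gene value. The other 26 Mapk10 indices differed by -0.20 to 0.16 log2.

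**Figure D4:**
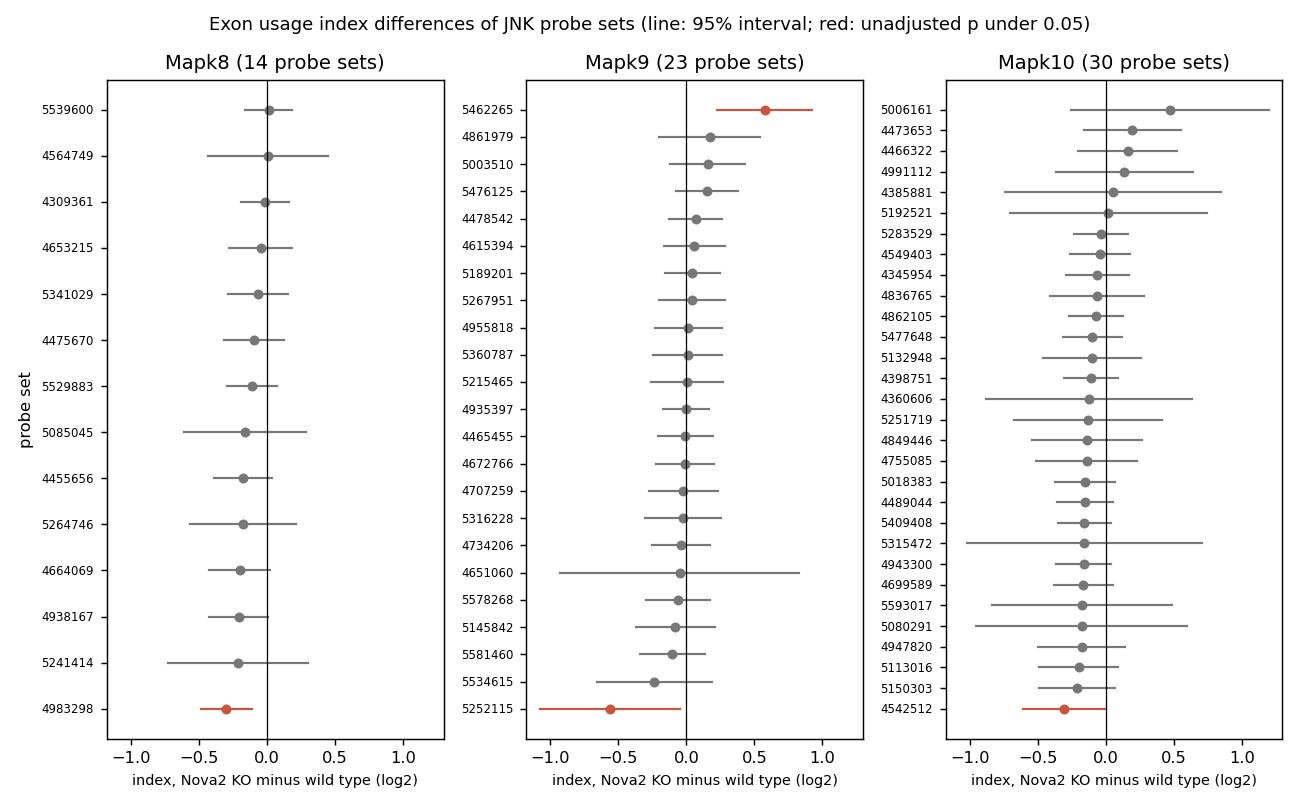
Exon usage index difference of each kept JNK probe set (Nova2 KO minus wild type, log2, horizontal axis) with its 95% interval, sorted within each gene; red marks an unadjusted limma p under 0.05. The points furthest from 0 with intervals that exclude it are 5462265 (0.58) and 5252115 (-0.56) of Mapk9.

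The wider pathway was read from lists of upstream kinases, scaffolds, phosphatases, substrates and other MAP kinases. Of 44 listed genes 37 were measured, 15 higher and 22 lower (median -0.043 log2, against 0.022 log2 over all genes). The JNK substrate gene Dcx passed the threshold, 1 of 37 against 0.208% of all genes, and 7 of 37 had an unadjusted p under 0.05 in limma against 11.6% of all genes. No gene of these lists had a probe set past the threshold in exon usage, against 0.215% of all genes.

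Upstream of JNK, no kinase, scaffold or phosphatase gene of the lists passed the threshold. Map2k4 differed by 0.058 log2 (SE 0.11) and Map2k7 by -0.074 log2 (SE 0.094), the kinases that phosphorylate JNK. Among 10 measured MAP3K genes 8 were lower (7 with median centring), over a range from -0.18 to 0.10 log2 and with a median of -0.040 log2. The lowest p values there were those of Map3k5, the stress kinase ASK1 (-0.18 log2, SE 0.16), and Map3k7, the cytokine-responsive TAK1 (0.10 log2, SE 0.11). Of the 6 scaffold genes 4 were lower, and Mapk8ip2, which encodes the neuronal JNK-interacting protein JIP2, was at -0.25 log2 (SE 0.12, limma adjusted p = 0.457), and its groups did not overlap as deposited, as for 2.5% of all genes in that direction, but overlapped after median centring. Mapk8ip1, which encodes JIP1, differed by -0.075 log2 (SE 0.12). The 3 measured phosphatase genes were all slightly higher, at 0.14 log2 for Dusp1 (SE 0.13), 0.066 log2 for Dusp4 (SE 0.15) and 0.052 log2 for Dusp8 (SE 0.12).

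Among 9 measured substrate genes 6 were higher and 3 lower, with a median of 0.18 log2. Dcx, which encodes the microtubule protein doublecortin of migrating neurons, rose by 0.81 log2 (SE 0.11, limma adjusted p = 0.0133), from 9.89 ± 0.20 log2 (SD, n = 4) to 10.69 ± 0.097 log2. This call was lost without wild type 1, Nova2 KO 1, Nova2 KO 2 or Nova2 KO 3 and with the mean over probe sets. Mapt, the gene of the microtubule protein tau, was at 0.44 log2 (SE 0.12, limma adjusted p = 0.236) with groups apart as deposited but overlapping after median centring or quantile normalization. The transcription factor genes lay on both sides of 0, with Jun at 0.20 log2 (SE 0.097), Atf2 at 0.21 log2 (SE 0.15), Jund at -0.26 log2 (SE 0.14) and Elk1 at -0.26 log2 (SE 0.12).

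Of 7 measured other MAP kinase genes 6 were lower, with a median of -0.20 log2 and none past the threshold. The exception was Mapk3, which encodes ERK1, at 0.37 log2 (SE 0.11, limma adjusted p = 0.251), whose groups were likewise apart only as deposited. Mapk6, which encodes the atypical kinase ERK3, was at -0.28 log2 (SE 0.11), and the p38 kinase gene Mapk14 at -0.27 log2 (SE 0.11).

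**Figure D5:**
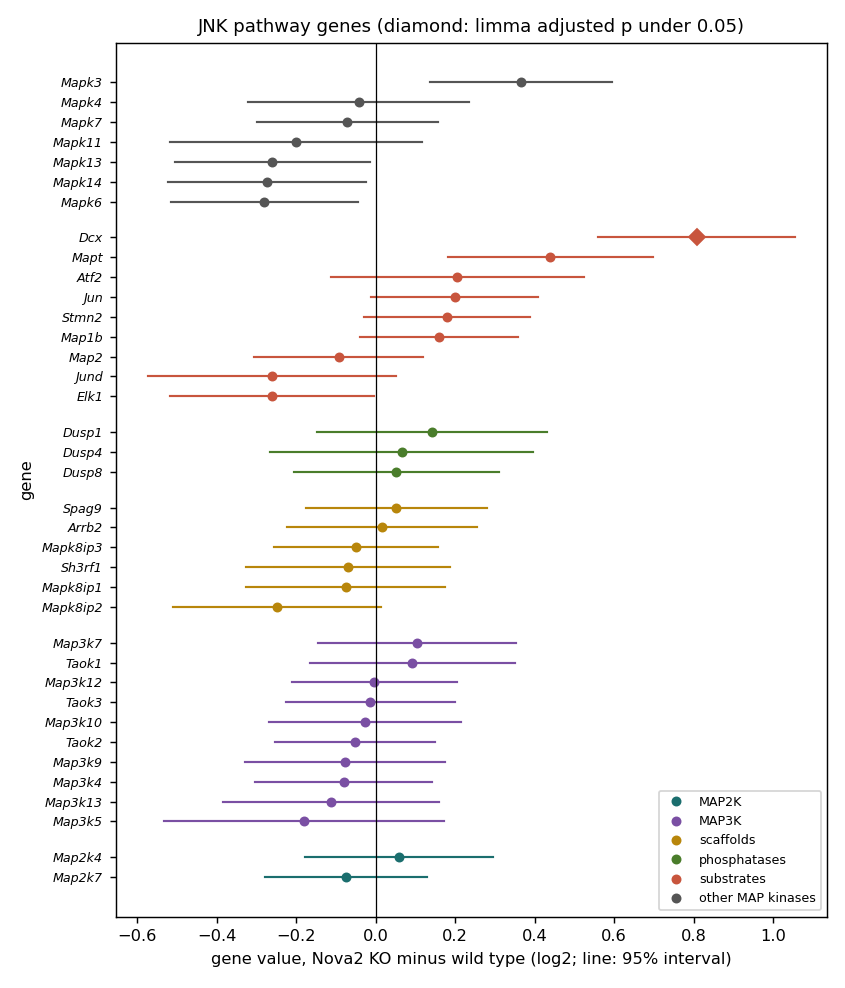
Gene value differences (Nova2 KO minus wild type, log2, horizontal axis) of the 37 measured JNK pathway genes with 95% intervals, coloured by list. Dcx, the diamond at 0.81, is the 1 gene past the threshold, and the MAP2K, MAP3K, scaffold and phosphatase genes all have intervals that include 0.

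The genes whose values followed each JNK gene most closely were taken over the 8 arrays after the median gene value of each array was subtracted, among 11991 other genes. These correlations describe 8 arrays that include both genotypes. Closest to Mapk8 were Arih2, which encodes a ubiquitin ligase (Pearson r = 0.988, Spearman rho = 0.929), 1110004F10Rik (r = 0.977, rho = 0.929) and Eif4a1, which encodes a translation initiation helicase (r = 0.976, rho = 0.929), with differences of 0.31, 0.37 and 0.34 log2. Closest to Mapk9 were Dach1 (r = 0.975, rho = 0.976), E130308A19Rik (r = 0.956, rho = 0.952) and the ephrin receptor gene Epha6 (r = 0.955, rho = 0.929), with differences of -0.040 to -0.049 log2. Closest to Mapk10 were the adhesion gene Nectin3 (r = 0.975, rho = 0.929), the retromer gene Vps26a (r = 0.971, rho = 0.905) and Gm973 (r = 0.968, rho = 0.929). Correlations over 0.9 were found for 92 genes with Mapk8, 63 with Mapk9 and 31 with Mapk10.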

How the data were processed

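The deposited values are log2 signals, 1 per probe set and array, made by the authors with PLIER, per the submitters' processing notes; its version, the background correction, the normalization between arrays and the genome build are not stated in those notes. Values were left as deposited. Gene names came from the platform annotation, with old symbols updated through a mouse gene table. Probe sets with a mean over the 8 arrays above the 25th percentile were kept. Gene values were medians over 3 or more kept probe sets, and indices were computed for genes with 5 or more. All features of a table were tested together in R 4.3.3 with lmFit and eBayes of limma 3.58.1 (two-sided, Benjamini-Hochberg at 0.05); scripts were tested on simulated data. Arrays have no depth, and their number limits the precision; p-values measure the spread between these 8 mice. Differences between JNK genes were tested with exact permutations. The members, lists, settings and the naming rule (per gene, the 2 probe sets with the highest and the 2 with the lowest index difference, each probe set or gene past the threshold, and the 2 genes of each list with the lowest p) were chosen with earlier results of these data known; other genes and probe sets were named after their values were seen.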

Additional observations from a re-analysis of the deposited data

Results flagged for a closer look

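Among 54 sets of 4 arrays checked for an array apart from its group, 1 was found, and chance gives about 1 in 20. It was the signal of Mapk10 probe set 4542512, where wild type 3 stood at 6.72 log2 and the other three wild type arrays between 6.42 and 6.47 log2.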

How the results depend on the processing

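No JNK gene value, probe set signal or index passed the threshold under any of the 18 other settings that gave it a value. The gene value difference ran from 0.31 (mean over probe sets) to 0.52 log2 for Mapk8 (limma adjusted p from 0.0921 to 0.486) and from 0.019 to 0.24 log2 for Mapk10. That of Mapk9 changed sign with the filter at the 50th percentile (0.023 log2) and ran from -0.091 to 0.059 log2 when single arrays were left out. Mapk8 minus Mapk9 and Mapk8 minus Mapk10 lost their calls with the filter at the 50th percentile (0.42 and 0.33 log2), with the mean over probe sets (0.33 and 0.20 log2) and without both arrays numbered 4 (0.38 and 0.24 log2), where 3 against 3 arrays cannot pass. Leaving out single arrays gave 0.34 to 0.54 and 0.14 to 0.32 log2. With the replicate number as a block the differences were the same, 0.46 and 0.25 log2. Their adjusted p was 0.125 by exact sign changes, too few to pass. It is not established that the numbers pair mice. Same-numbered arrays deviated together with correlations over genes of 0.14, 0.33, 0.024 and 0.57 for numbers 1 to 4. The largest correlations with another number were 0.046, 0.17, 0.28 and 0.063, so only number 3 was not closest to its own number. The main tests leave the numbers out. The replicate block gave adjusted p of 0.0921 for Mapk8, 0.928 for Mapk9 and 0.285 for Mapk10, and 80 called genes against 25. Over all features, other settings gave 6 to 80 called genes (25), 0 to 165 probe set signals (20) and 2 to 506 indices (26, the 506 with diffSplice). The pathway count of 1 became 0 with the mean over probe sets and 0 to 1 without single arrays. Without both arrays numbered 4 the signal of 4861979 differed by -0.012 log2. Leaving out single arrays, near-0 differences changed sign for the signals of 4861979 (-0.085 to 0.27 log2) and 5150303 (-0.072 to 0.025 log2) and the indices of 4564749 (-0.13 to 0.16 log2) and 5539600 (-0.012 to 0.024 log2). The causes were not tested.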
